A study of Mus musculus with 4 samples.

Results

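The genes described here are 10 mouse genes of IL-6 family cytokine signaling and prostanoid synthesis, taken from the 56748 gene IDs counted in each library. They are the cytokines *Il11*, *Il6* and *Lif*, the receptors *Il6st* and *Il11ra1*, the cyclooxygenases *Ptgs1* and *Ptgs2*, and the prostanoid synthase genes *Ptgis*, *Ptges* and *Ptges3*. They were listed by name because *Il11* and *Ptgis* fell strongly between the groups compared here, so the values of these 2 genes are a description of that choice and carry no test. All 10 symbols were found by Ensembl ID. Reads were present for 9 of the 10 genes, and 6 passed the filter on low counts.

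C2C12 is an established mouse myoblast line, and the study asked how its RNA changes when *Hnrnpl* is knocked down. Both groups were C2C12 cells of wild-type genotype, grown as myoblasts in growth medium, given a plasmid that also makes eGFP, and selected as stable eGFP-positive cells in 3 µg/mL puromycin. The scrambled group (n = 2) carried a control shRNA, and the knockdown group (n = 2) carried a mixture of 3 shRNAs against *Hnrnpl*. The libraries of a group are passages of 1 selected line, so every error and p-value below measures the spread between passages and not between independently derived lines. Each of the 2 batches in the labels holds 1 library of each group, and the replicate number is the batch number.

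IL-6 family cytokines are secreted proteins that signal through a shared receptor chain, gp130, which is encoded by *Il6st*. A ligand-specific chain such as the IL-11 receptor brings the cytokine to gp130, JAK kinases on gp130 are activated, and STAT3 is phosphorylated and enters the nucleus. In muscle, IL-6 and LIF are known as cytokines released by muscle cells that act on muscle precursors. Prostanoids are lipid signals made from arachidonic acid, which phospholipases release from membranes. Cyclooxygenases turn it into prostaglandin H2, and a terminal synthase then decides the product, which is prostacyclin for the enzyme encoded by *Ptgis* and prostaglandin E2 for the enzymes encoded by *Ptges*, *Ptges2* and *Ptges3*. HnRNP L, the protein whose mRNA was targeted, binds CA-rich RNA.

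Between 1229424 and 1676911 direct RNA reads per library were counted on genes, so a count of 0 allowed up to 1.79 to 2.44 CPM (reads scaled to 1000000 counted reads per library), at 3 counts and for counting error only. *Hnrnpl* itself had 358 reads in scrambled 1, 656 in scrambled 2, 242 in knockdown 1 and 258 in knockdown 2, and the knockdown libraries lay below both scrambled libraries. The fitted log2 fold change was -0.78 with a standard error of 0.18 (adjusted p = 0.0112 in edgeR's quasi-likelihood test with the Benjamini-Hochberg method), and knockdown 1 or scrambled 2 alone decided the call, since without them the log2 fold change was -0.62 (adjusted p = 0.150) and -0.48 (adjusted p = 0.194). Of 8670 genes tested, 202 were called higher and 279 lower in the knockdown. A call needed a mean normalized count over 10, a log2 fold change beyond 0.5 in either direction and an adjusted p under 0.05. Those called higher are 2.33% and those called lower 3.22% of the genes tested, and over all of them the median log2 fold change was -0.00.

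The labelled cell type was checked with markers. Of 7 myoblast markers 6 had reads, with 113 to 190 reads per library on *Myf5*, while *Pax7* was at 0 in every library and *Myod1* had 1 read in all. The list summed to 15192 and 16047 CPM in scrambled and to 13534 and 14553 CPM in knockdown, nearly all of it *Vim*, an intermediate filament gene of mesenchymal cells in general (log2 fold change -0.15, edgeR adjusted p = 0.610). Without *Vim* the other markers summed to 647 and 789 CPM in scrambled and to 445 and 364 CPM in knockdown. All 5 tested markers had a log2 fold change below 0, and *Cdh15* (-2.55), *Chrna1* (-1.53) and *Des* (-0.56) were called lower in the knockdown, where 3.22% of all genes tested were called lower. The call of *Des* was lost in other settings of edgeR or DESeq2, where its adjusted p reached 0.214. Its log2 fold change reached -0.41 when single libraries were left out. Of 9 markers of differentiated muscle 7 were at 0 in every library, among them *Myog*, and *Tnnc1* (-0.90) and *Acta1* (-0.44) were tested without a call. Of 6 endothelial markers 3 were at 0, and the list summed to 0 or 1 read per library. Of 9 markers of macrophages and other white cells 4 were at 0 (*Ptprc*, *Adgre1*, *Itgam* and *Tyrobp*), and the sum, mostly *Cd14*, was 22.3 and 25.6 CPM in scrambled and 27.6 and 41.5 CPM in knockdown. The list for fibroblasts and adipogenic progenitors (5 of 6 genes with reads, *Dpt* at 0) summed to 31.7 and 34.0 CPM in scrambled and to 18.2 and 13.8 CPM in knockdown, and its 2 tested genes *Cd34* (log2 fold change -1.60, edgeR adjusted p = 0.0563) and *Ly6a* (-1.06, adjusted p = 0.113) were not called. The smooth muscle and pericyte list (4 of 6 genes with reads, *Myh11* and *Rgs5* at 0) summed to 8440 and 6834 CPM in scrambled and to 2762 and 3409 CPM in knockdown, nearly all of it *Acta2*. Of its 4 tested genes 2 were called lower, *Acta2* (log2 fold change -1.36, edgeR adjusted p = 7.06e-05) and *Cspg4* (-0.98, adjusted p = 0.0497). *Cnn1* (-1.49, adjusted p = 0.0570) and *Pdgfrb* (-0.05) were not. The call of *Cspg4* was lost in other settings of edgeR or DESeq2, where its adjusted p reached 0.565. The myoblast sum, with and without *Vim*, and the last 2 sums moved in the direction of *Il11* and *Ptgis*, and their part in those values was not tested. In bulk RNA, fewer cells of a type and less RNA per cell cannot be told apart.

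*Il11* (ENSMUSG00000004371), the gene of interleukin 11, was the family cytokine with the widest separation between the groups. It had 112 reads in scrambled 1, 98 in scrambled 2, 0 in knockdown 1 and 3 in knockdown 2. Both scrambled libraries were high and both knockdown libraries were at or near the counting limit, without overlap. On the CPM scale these are 80.7 and 58.4 in scrambled and 0 and 2.44 in knockdown, where the 0 allows up to 2.18 CPM. Scrambled normalized counts were 99.9 ± 24.6 (SD, n = 2), and those of the knockdown were 1.75 ± 2.48 (SD, n = 2). After TMM scaling of the library sizes, the summed 3 knockdown reads were 60.7-fold lower than the 210 scrambled reads, with a 95% counting interval of 20.5-fold to 297-fold. The fitted log2 fold change of -5.83 was the third lowest among the 8670 genes tested, and it rests on those 3 reads, since it was -4.77 without knockdown 1 and -9.70 without knockdown 2.

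*Ptgis* (ENSMUSG00000017969) encodes prostacyclin synthase. It had 41 reads in scrambled 1, 80 in scrambled 2, 2 in knockdown 1 and 3 in knockdown 2, or 29.5 and 47.7 CPM against 1.45 and 2.44 CPM. The scrambled libraries differed between themselves, yet both stood well above the knockdown libraries. The normalized count was 55.2 ± 17.2 (SD, n = 2) for scrambled and 2.75 ± 1.07 (SD, n = 2) for knockdown. The summed 5 knockdown reads were 21.0-fold lower than the 121 scrambled reads on the same scale, with a 95% counting interval of 8.75-fold to 65.8-fold. The fitted log2 fold change was -4.31, the sixth lowest of all genes tested, and lay between -4.73 and -3.94 when single libraries were left out. Within batch 1 the log2 ratio of knockdown to scrambled was -4.43, and within batch 2 it was -4.26.

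**Figure D1:**
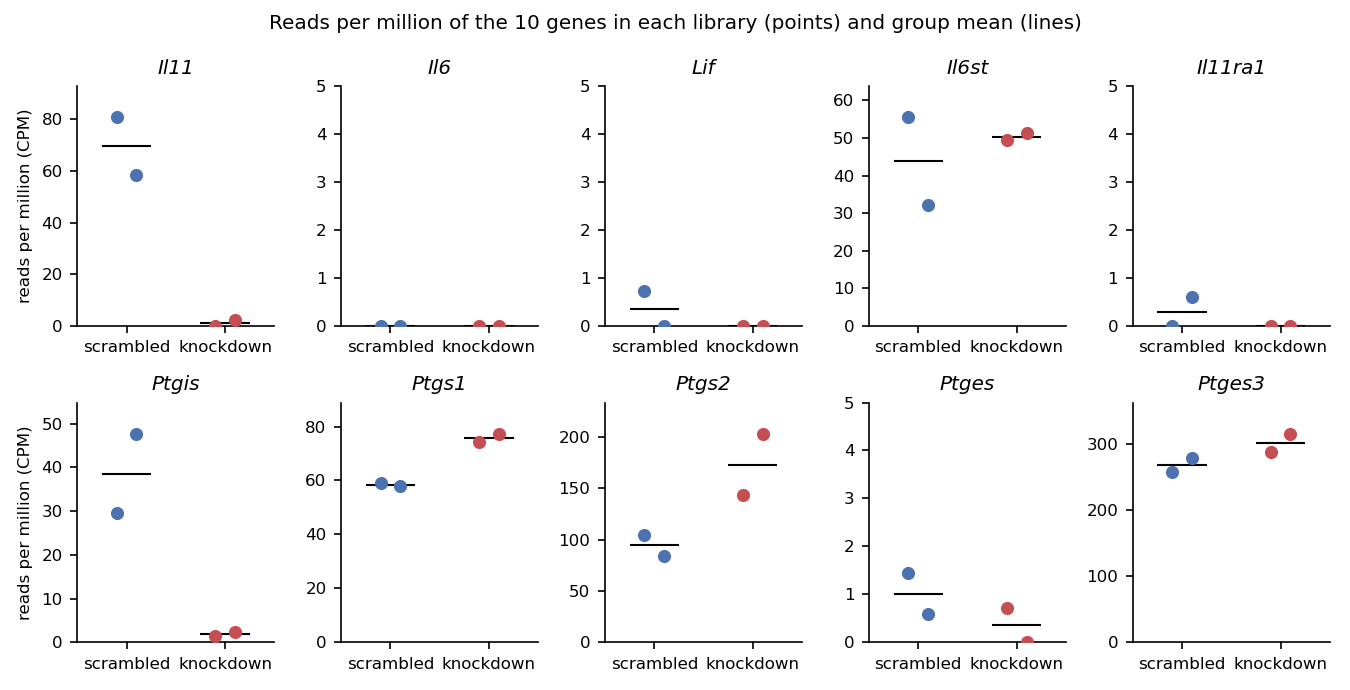
Level in CPM (reads scaled to 1000000 counted reads) of each of the 10 genes, with 1 point per library, scrambled in blue, knockdown in red, and the group mean as a line; each panel has its own axis from 0. *Il11* fell from 80.7 and 58.4 CPM to 0 and 2.44 CPM and *Ptgis* from 29.5 and 47.7 CPM to 1.45 and 2.44 CPM, while *Il6*, *Lif*, *Il11ra1* and *Ptges* stayed at 0 to 2 reads in every library.

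The sequences around the start sites of *Il11* and *Ptgs2*, 1 gene lower and 1 higher in the knockdown, are shown because they are the DNA nearest to where these RNAs begin. Each runs 5′ to 3′ in the direction of transcription and covers 250 bases before and 50 bases from the annotated start site in GRCm39, and the first transcribed base is counted as position 1. Capitals mark letters of a searched motif: in *Il11* the AP-1 letters (TGACTCA, here as TGAGTCA on the other strand, first base at -98), and in *Ptgs2* a STAT form (TTCNNNGAA, first base at -199) and an NF-kB form (first base at -41). The window of *Il11* is chr7:4781091-4781390 on the reverse strand, and that of *Ptgs2* is chr1:149975238-149975537 on the forward strand.
Il11: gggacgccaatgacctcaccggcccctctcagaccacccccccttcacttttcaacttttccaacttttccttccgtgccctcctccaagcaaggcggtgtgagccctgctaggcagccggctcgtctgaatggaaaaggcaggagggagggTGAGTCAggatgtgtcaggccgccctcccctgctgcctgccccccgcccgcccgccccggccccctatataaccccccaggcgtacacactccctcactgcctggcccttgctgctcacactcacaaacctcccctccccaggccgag
Ptgs2: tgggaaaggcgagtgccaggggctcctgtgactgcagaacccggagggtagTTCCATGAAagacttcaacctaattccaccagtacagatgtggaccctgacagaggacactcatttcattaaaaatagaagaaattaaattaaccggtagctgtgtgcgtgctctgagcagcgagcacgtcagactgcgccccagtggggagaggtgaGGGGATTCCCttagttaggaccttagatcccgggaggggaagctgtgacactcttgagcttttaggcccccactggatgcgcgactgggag

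The same letters were searched on both strands in the 300-base windows of 21630 protein-coding genes. The AP-1 letters were in 4.70% of them, the STAT form in 8.85% and the NF-kB form in 4.85%. Windows of *Il6* (first base at -249) and *Lif* (first base at -217) held the AP-1 letters too. These ligand genes had 0 reads and 1 read over all libraries, so the letters do not set *Il11* apart from them. The NF-kB form was also in *Il6* (first base at -44), and the STAT form in *Il11ra1* (first base at 16). *Il11* also held the GC box letters (GGGCGG) 4 times, all on the other strand between -79 and -47 and printed here in lower case, and a GC box was in 42.6% of windows. The windows of *Il11* and *Ptgs2* share no motif among those searched, and all these matches describe the letters and not the binding of a factor.

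Because HnRNP L binds CA-rich RNA, the letters CACACACA were also counted along the genes. The reference transcripts of all 10 genes held none, and 19.3% of the tested genes with a reference transcript did. Along the whole gene, introns included, 9 of the 10 genes held at least 1 such run, against 78.9% of tested genes. *Il11*, on chr7:4775372-4785858 with 5 exons in its reference transcript, held 1, and *Ptgis*, on chr2:167033725-167083018 with 10 exons, held 15. *Ptges3* held none. No target sequence of the 3 shRNAs shared more than 10 bases in a row with the reference transcript of any of the 10 genes. The runs were 6 to 10 bases long. Over tested genes the 95th percentile was 9 and the median 7 or less, since shorter runs were counted there as 7. The run of 10 was in *Il6st* with the second shRNA.

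The other ligands among the 10 genes were close to silent. *Il6*, the cytokine that gives the family its name, had 0 reads in all 4 libraries. *Lif*, the gene of leukemia inhibitory factor, had 1 read in scrambled 1 and none elsewhere. Neither gene could be tested, and a difference between the groups was not detectable at this depth.

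Of 7 further ligand genes of this family reported here, *Clcf1* alone had reads, and *Cntf*, *Ctf1*, *Osm*, *Il27*, *Ebi3* and *Il31* were at 0 in every library. *Clcf1*, the gene of cardiotrophin-like cytokine factor 1, had 100 and 87 scrambled reads and 72 and 68 knockdown reads, or 72.1 and 51.9 CPM against 52.4 and 55.3 CPM. The groups overlapped, and the log2 fold change was -0.22 (standard error 0.21, edgeR adjusted p = 0.568).

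Of the receptors *Il6st* and *Il11ra1*, the first alone could be tested. *Il6st*, the shared gp130 chain, had 77 and 54 scrambled reads and 68 and 63 knockdown reads, or 55.5 and 32.2 CPM against 49.5 and 51.2 CPM. Both knockdown values lay between the 2 scrambled values. The log2 fold change was 0.19 (standard error 0.24, 95% interval -0.29 to 0.67, edgeR adjusted p = 0.704), and its direction hung on scrambled 2, without which it was -0.20. Within batches the log2 ratio was -0.25 in batch 1 and 0.70 in batch 2. *Il11ra1*, the IL-11 binding chain, had 1 read in scrambled 2 and none elsewhere, too few to test. For every 100 reads of *Il6st* there were 145 and 181 reads of *Il11* in scrambled and 0 and 4.76 in knockdown.

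Of 7 other receptor genes of the family 3 had reads and 1 was tested. This was *Lifr*, the LIF receptor chain, with 22 and 30 scrambled reads and 24 and 17 knockdown reads, overlapping in CPM (log2 fold change -0.14, standard error 0.33, edgeR adjusted p = 0.852). *Il11ra2*, *Cntfr*, *Il27ra* and *Il31ra* had 0 reads in every library. The 0 of *Il11ra2* is uncertain, because its reference transcript could not be placed at a single locus and HTSeq sets aside reads without a unique place.

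Inside the cell, 18 genes of the JAK-STAT relay and its brakes were listed, of which 13 were tested, 2 were called lower and none higher (3.22% and 2.33% of all genes), with a median log2 fold change of 0.08. *Stat3* had 15.5 to 21.8 CPM in overlapping groups, at 0.09 in log2 fold change (standard error 0.32), and *Jak1* (-0.32), *Jak2* (0.13) and the feedback inhibitor *Socs3* (0.08) were not called. *Stat5b*, a transcription factor, had 33 and 24 scrambled reads and 6 and 4 knockdown reads, a log2 fold change of -2.29 (standard error 0.46, edgeR adjusted p = 0.00552). *Socs2*, a feedback inhibitor, had 23 and 18 scrambled reads and 3 and 1 knockdown reads, a log2 fold change of -3.09 (standard error 0.59, edgeR adjusted p = 0.00347), and 22.8% of its gene lies under other annotated genes. Groups did not overlap for either gene, which adds no support to a call. Both genes passed the filter on low counts only through the scrambled libraries. With at least 10 counts in every library neither could be tested. Few reads stand behind both calls, and leaving out scrambled 1 ended both, with edgeR adjusted p of 0.0719 for *Stat5b* and 0.0544 for *Socs2*. Without knockdown 1 the adjusted p of *Stat5b* in edgeR was 0.0569, and without scrambled 2 *Socs2* dropped below the mean count required for a call.

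Adapters tie gp130 to other routes, and none of those listed was called. *Grb2* had 109 and 151 scrambled reads and 156 and 137 knockdown reads, with a log2 fold change of 0.38 (unadjusted p = 0.0290, adjusted p = 0.173, both from edgeR). *Ptpn11*, a phosphatase that docks on gp130, had a log2 fold change of 0.35 (edgeR adjusted p = 0.248). *Gab1*, a docking protein, had 7 and 20 scrambled reads and 8 and 7 knockdown reads, overlapping in CPM, and was not tested. Of all genes tested, 21.8% had an unadjusted p under 0.05.

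Known target genes of STAT3 went in both directions. Of 23 listed, 16 were tested, 2 were called higher and 1 lower (2.33% and 3.22% of all genes), 8 lay above 0 and 8 below, and the median log2 fold change was 0.03. *Junb*, a subunit of AP-1, had 312 and 426 scrambled reads and 242 and 152 knockdown reads and was called lower (log2 fold change -0.71, standard error 0.16, edgeR adjusted p = 0.0125). *Vegfa*, a growth factor for blood vessels, had 152 and 176 scrambled reads and 281 and 199 knockdown reads and was called higher (0.74, standard error 0.16, edgeR adjusted p = 0.00763). *Cebpb*, a transcription factor, had 28 and 26 scrambled reads and 55 and 39 knockdown reads and was called higher (0.99, standard error 0.28, edgeR adjusted p = 0.0400), and 20.7% of its gene lies under *Peds1*.

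*Junb*, *Vegfa* and *Cebpb* were picked by their calls, so the separation of their groups adds no support. The calls were lost without knockdown 2 for *Junb* (edgeR adjusted p = 0.111) and without knockdown 1 for *Vegfa* (0.108). *Vegfa* was also lost without scrambled 2 (0.0511), and *Cebpb* without knockdown 1 (0.231), knockdown 2 (0.0506) or scrambled 2 (0.238). In a rerun of the study's DESeq2 test with the local fit, the adjusted p of *Cebpb* was 0.230. *Bcl2l1*, which protects from apoptosis, had a log2 fold change of 0.80 (edgeR adjusted p = 0.0585), the kinase gene *Pim1* had 0.95 (0.171) and its relative *Pim3* had -0.38 (0.197). *Timp1* and *Birc5*, the most abundant of the list, had -0.16 and -0.01, and both values changed sign when single libraries were left out. *Birc5* changed sign with upper quartile scaling too, to 0.01. *Socs3*, *Myc* and *Mcl1*, textbook STAT3 targets, had log2 fold changes of 0.08, -0.02 and -0.06.

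On the prostanoid side, the release of arachidonic acid comes first. Of 17 genes listed for release and for supply through endocannabinoids, 8 were tested and none was called (2.33% of all genes were called higher and 3.22% lower), with a median log2 fold change of -0.34. An unadjusted p under 0.05 in edgeR was reached by 3 of the 8, against 21.8% of all genes. *Pla2g4a*, the cytosolic phospholipase that frees arachidonic acid, had 46 and 41 scrambled reads and 63 and 65 knockdown reads, with both knockdown libraries higher (log2 fold change 0.76, standard error 0.24, unadjusted p = 0.00512, adjusted p = 0.0663, edgeR). *Acsl4*, which couples free arachidonic acid to coenzyme A, had 112 and 160 scrambled reads and 80 and 76 knockdown reads, with both knockdown libraries lower in CPM (-0.59, standard error 0.17, unadjusted p = 0.00328, adjusted p = 0.0519, edgeR). *Abhd6* had -0.93 (standard error 0.38, edgeR adjusted p = 0.150). *Pla2g12a*, among the most abundant of the list, had 0.18. *Pla2g4a* and *Acsl4* lay close to the threshold, and *Pla2g4a* passed it without scrambled 1, at an edgeR adjusted p of 0.0241.

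The cyclooxygenases come next. *Ptgs2* (ENSMUSG00000032487), the inducible enzyme COX-2, had 145 and 141 scrambled reads and 196 and 249 knockdown reads, or 105 and 84.1 CPM against 143 and 203 CPM. Both knockdown libraries lay above both scrambled libraries, with the wider spread in the knockdown. Normalized counts were 135 ± 23.5 (SD, n = 2) and 243 ± 67.8 (SD, n = 2). *Ptgs2* was called higher, at 1.80-fold (log2 fold change 0.85, standard error 0.19, edgeR adjusted p = 0.0112), on a chromosome with a median log2 fold change of 0.19. Over 8 other scalings, filters, designs and tests the adjusted p of edgeR or DESeq2 ran from 0.000130 to 0.119. The call was lost without knockdown 2 (log2 fold change 0.54, edgeR adjusted p = 0.136) and without scrambled 2 (0.67, edgeR adjusted p = 0.0643). Within batch 1 the log2 ratio was 0.36 and within batch 2 it was 1.29, so batch 2 held most of the difference. The antisense gene *Ptgs2os* overlaps 4.78% of *Ptgs2*, and the strand setting of the counting is not given in the sources used here.

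*Ptgs1*, the constitutive enzyme COX-1, had 82 and 97 scrambled reads and 102 and 95 knockdown reads, or 59.1 and 57.8 CPM against 74.2 and 77.3 CPM. The groups did not overlap in CPM and the libraries of each group were close. Its log2 fold change of 0.34 did not pass (standard error 0.18, 95% interval -0.00 to 0.69, unadjusted p = 0.0658, adjusted p = 0.266, edgeR). For every 100 reads of *Ptgs1* there were 177 and 145 reads of *Ptgs2* in scrambled and 192 and 262 in knockdown. Both knockdown ratios lay above both scrambled ratios, and this difference was not tested.

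**Figure D2:**
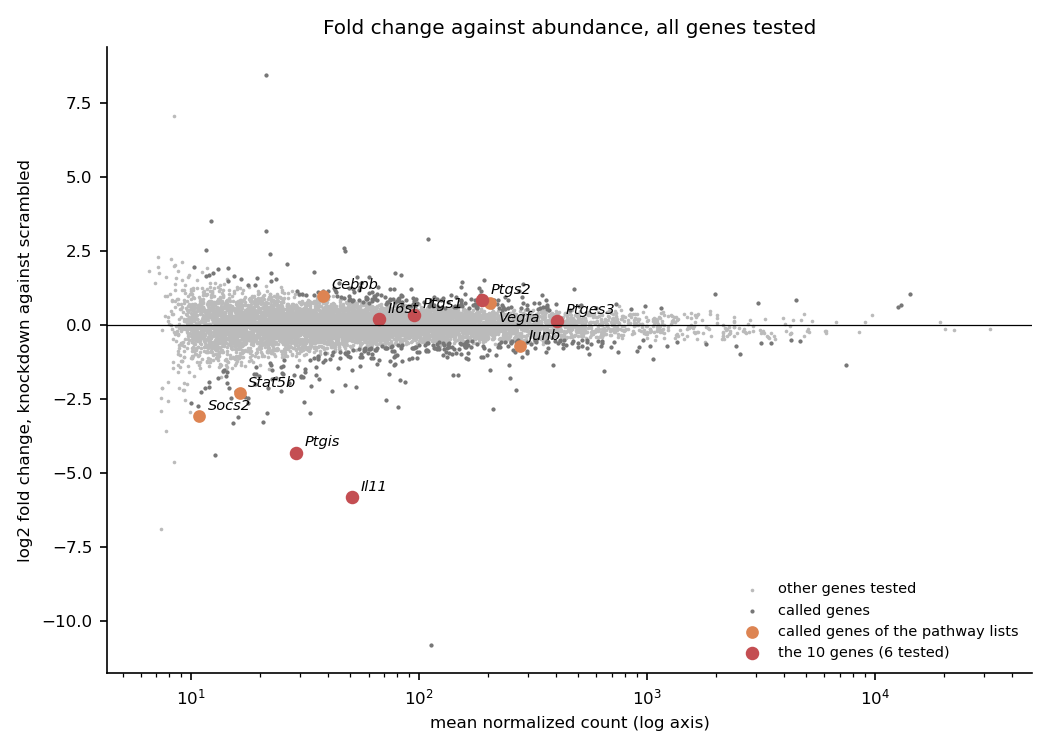
Log2 fold change of knockdown against scrambled for all 8670 genes tested, against the mean normalized count on a log axis, with the 6 tested genes of the 10 in red and called genes of the pathway lists in orange. *Il11* (-5.83) and *Ptgis* (-4.31) were chosen for their fall and lie below the bulk of the genes, as do *Mmp15* (-4.38) and others, and *Ptgs2* (0.85) lies at the upper edge, while *Il6st*, *Ptgs1* and *Ptges3* lie within the bulk of the genes.

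Terminal synthases turn prostaglandin H2 into single products. *Ptgis* was described above. For every 100 cyclooxygenase reads (*Ptgs1* and *Ptgs2* together) there were 18.1 and 33.6 reads of *Ptgis* in scrambled and 0.671 and 0.872 in knockdown. *Ptges*, the inducible prostaglandin E synthase, had 2 and 1 scrambled reads and 1 and 0 knockdown reads, too few to test. *Ptges3*, known both as cytosolic prostaglandin E synthase and as the HSP90 co-chaperone p23, was the most abundant of the 10 genes, with 358 and 468 scrambled reads and 396 and 389 knockdown reads, or 258 and 279 CPM against 288 and 316 CPM. The knockdown libraries were slightly higher in CPM, without passing the test (log2 fold change 0.14, standard error 0.14, 95% interval -0.13 to 0.42, edgeR adjusted p = 0.601). The annotation also lists a processed pseudogene of it, and the reference transcript of *Ptges3* and its 3′ end were both placed at a single locus.

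Of 8 other terminal synthase genes 4 had reads and 2 were tested, and neither was called, where 2.33% of all genes were called higher and 3.22% lower. *Ptges2*, the membrane-associated prostaglandin E synthase, had 82 and 117 scrambled reads and 87 and 61 knockdown reads (log2 fold change -0.22, edgeR adjusted p = 0.534). *Cbr1*, a carbonyl reductase that converts prostaglandin E2, had 0.14 (edgeR adjusted p = 0.835), and this turned to -0.23 without knockdown 2 and to -0.08 without scrambled 1. The synthases of prostaglandin D2 (*Hpgds* and *Ptgds*) and of thromboxane (*Tbxas1*) had 0 reads in every library, as had *Prxl2b*. The prostaglandin E2 synthases *Ptges2* and *Ptges3* held most of the terminal synthase reads in both groups.

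The 12 genes of cyclooxygenases and terminal synthases other than *Ptges3* summed to 381 and 494 scrambled reads and 422 and 455 knockdown reads, or 275 and 295 CPM against 307 and 370 CPM. *Ptgs2* made up 38.1% and 28.5% of them in scrambled and 46.4% and 54.7% in knockdown. *Ptgis* made up 10.8% and 16.2% in scrambled and 0.474% and 0.659% in knockdown. *Ptgs1* stayed between 19.6% and 24.2%. The sum was higher in both knockdown libraries while the share of *Ptgis* in it was lower in both, and neither was tested.

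Breakdown and transport of prostanoids had 8 listed genes, of which 5 were tested and none called (2.33% of all genes were called higher and 3.22% lower), with a median log2 fold change of 0.21. *Ptgr1*, a reductase that inactivates prostaglandins and leukotriene B4, had -0.28 (edgeR adjusted p = 0.362) and *Cbr3* had 0.41 (edgeR adjusted p = 0.279). *Hpgd*, the main enzyme that starts prostaglandin breakdown, had 0 reads in every library. Of 10 prostanoid receptor genes 5 had 0 reads in every library (*Ptger1*, *Ptger2*, *Ptger3*, *Tbxa2r* and *Ptgdr*). *Ptgir*, the prostacyclin receptor on the cell surface, had 1 read in scrambled 2 and 2 reads in knockdown 1. *Ppard*, a nuclear receptor that prostacyclin is thought to reach, had 31 and 40 scrambled reads and 37 and 34 knockdown reads (log2 fold change 0.21, edgeR adjusted p = 0.708). *Ptger4*, a receptor of prostaglandin E2, had 11 and 5 scrambled reads and 2 and 7 knockdown reads and was not tested.

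**Figure D3:**
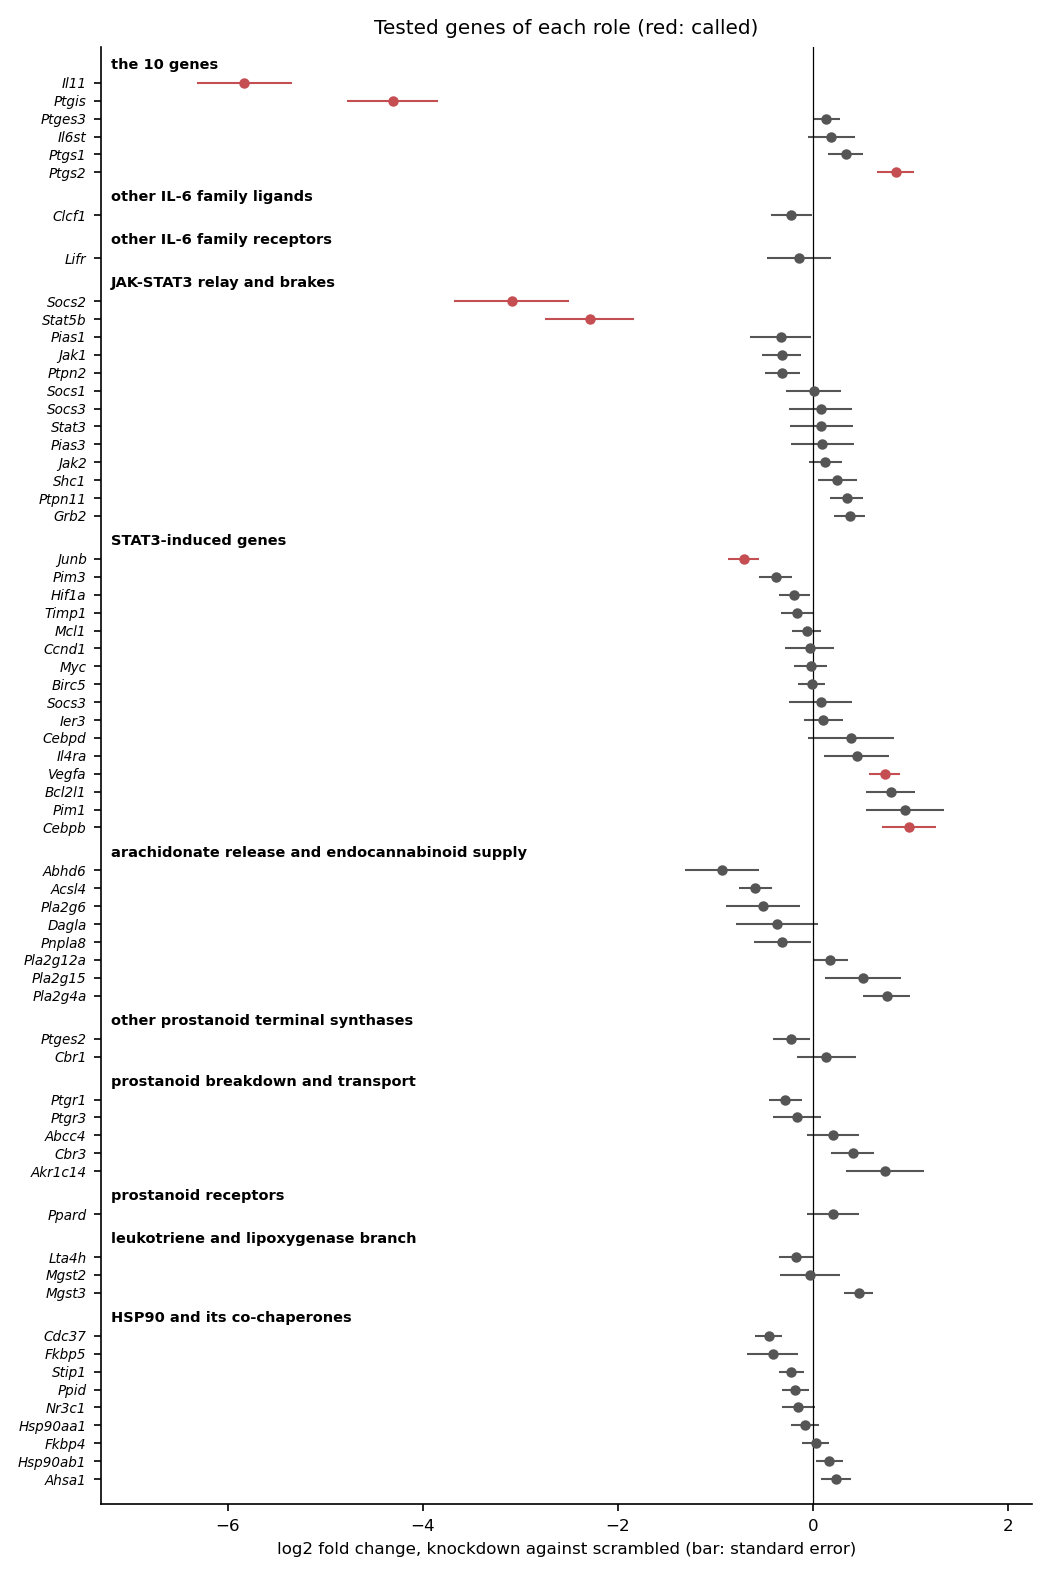
Log2 fold change of knockdown against scrambled (points, with standard error bars) of every tested gene of the 10 and of each pathway list, grouped by role, with called genes in red. Apart from *Il11* and *Ptgis*, the called genes are *Ptgs2*, *Vegfa* and *Cebpb* above 0 and *Socs2*, *Stat5b* and *Junb* below 0, and the lists of prostanoid release, breakdown and receptors hold no called gene.

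Over the 10 genes, 6 were tested, 3 were called, 1 higher (2.33% of all genes) and 2 lower (3.22%), and the median log2 fold change of the 6 was 0.17. Since *Il11* and *Ptgis* were listed for their fall in this comparison, nothing is read from these counts. With 2 libraries against 2, an exact permutation test cannot go below p = 0.333, so the p-values given come from the edgeR fit over all genes. Direct RNA sequencing gives about 1 read per RNA molecule, so CPM is the scale for comparing levels of different genes. Values per length of the reference transcript are given beside it only to show how the order shifts. Dividing by length lowers the genes with longer transcripts. In CPM, the scrambled libraries had *Ptges3* (258 and 279) above *Ptgs2* (105 and 84.1), *Il11* (80.7 and 58.4), *Ptgs1* (59.1 and 57.8), *Il6st* (55.5 and 32.2) and *Ptgis* (29.5 and 47.7). In this order *Il11* and *Ptgs1* overlapped, as did *Il6st* and *Ptgis*. Per length, the group mean of *Il11* (35.7 CPM per kb) came before *Ptgs1* (20.4), *Ptgs2* (19.9), *Ptgis* (17.6) and *Il6st* (5.05), with *Ptges3* still first (134). Between libraries *Ptgs1*, *Ptgs2* and *Ptgis* overlapped on this scale and had no clear order. In knockdown *Ptges3*, *Ptgs2*, *Ptgs1* and *Il6st* followed each other in this order on both scales, without overlap in CPM, and *Il11* and *Ptgis* were last.

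The genes around *Il11* and *Ptgis* were examined within 500 kb of the start site on either side. Of all genes tested, 2.33% were called higher, 3.22% were called lower and 21.8% had an unadjusted p under 0.05 in edgeR, and the counts of neighbours are to be read against these shares. Around *Il11*, 13 genes were tested, none was called, 1 had an unadjusted p under 0.05, and the log2 fold changes ran from -1.08 (*Zfp580*) to 0.19 (*Tmem238*) with a median of -0.14. The nearest was *Tmem238*, with 43 and 47 scrambled reads and 45 and 44 knockdown reads. Around *Ptgis*, 14 genes were tested with a median of -0.04, 3 had an unadjusted p under 0.05, and 1 was called, *Cebpb* (0.99), at -448 kb from the start site. The lowest of them was the noncoding RNA *Zfas1* at -0.70 (edgeR adjusted p = 0.0788). Since *Il11* and *Ptgis* were chosen for their fall, its size beside that of the neighbours is a description.

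**Figure D4:**
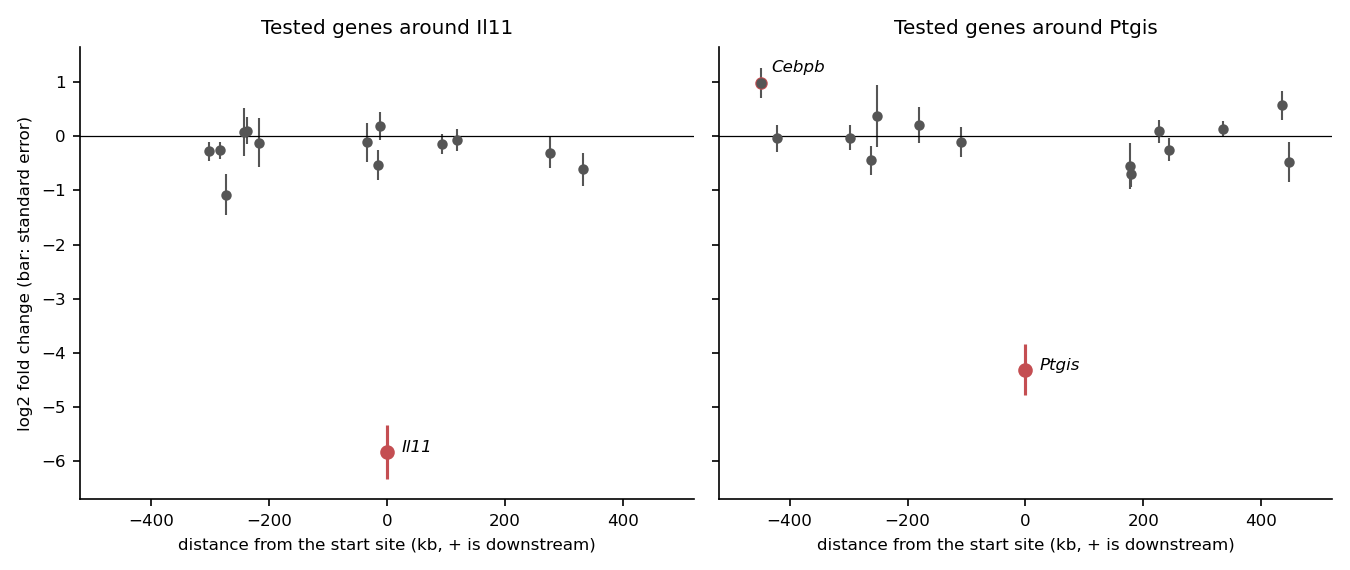
Log2 fold change (points, with standard error bars) of the tested genes within 500 kb of the start sites of *Il11* and *Ptgis*, against the distance from the start site in kb, where positive values lie downstream. The neighbours of *Il11* lie between -1.08 and 0.19 and those of *Ptgis* between -0.70 and 0.99, against -5.83 and -4.31 for the 2 genes themselves.

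The genes most like *Il11* and *Ptgis* across the 4 libraries were found by the Euclidean distance of centred log2(CPM + 1) values, where smaller is more alike. With 4 libraries in 2 groups this mainly ranks genes by the size of their fall. The gene most like *Il11* was *Ptgis* (distance 1.93), followed by *Stmn4* (2.20), *Pknox2* (2.39), *Stmn2* (2.41) and *Mmp15* (2.44). *Stmn2*, a tubulin-binding protein known from neurons, had 257 and 217 scrambled reads and 0 and 0 knockdown reads. The genes most like *Ptgis* were *Stmn4* (0.511), *Mmp15* (0.526), *Pknox2* (1.05), *Cited1* (1.10) and *Fhl1* (1.12). *Mmp15*, a membrane-bound metalloproteinase, had 17 and 37 scrambled reads and 1 and 1 knockdown reads. The 6 genes besides *Il11* and *Ptgis* were picked for this likeness, so their lower reads in the knockdown follow from the choice.

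**Figure D5:**
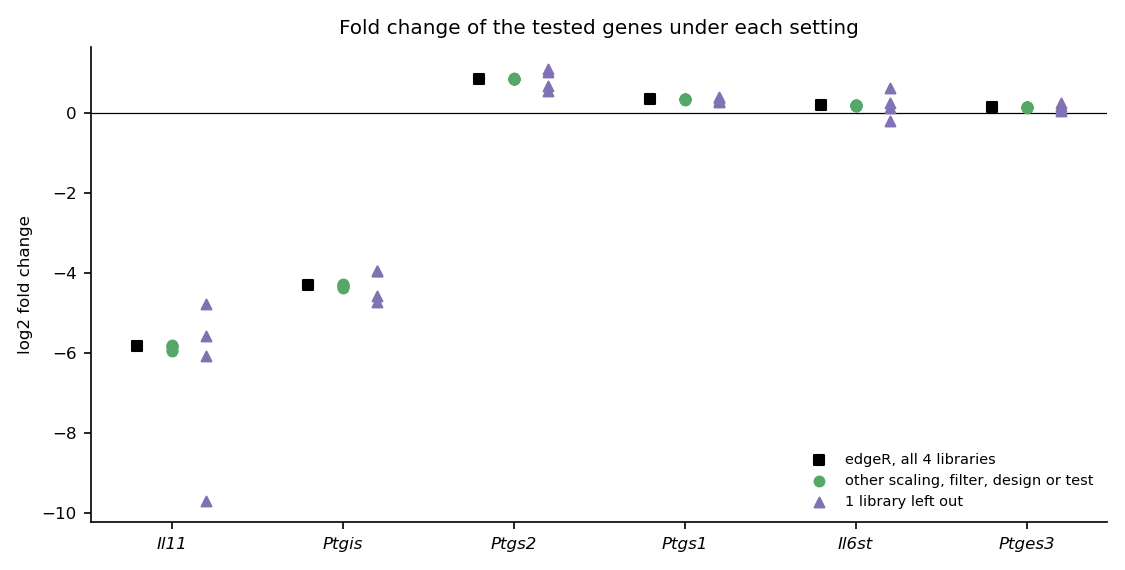
Log2 fold change of the 6 tested genes with all 4 libraries in edgeR (squares), with another scaling, filter, design or test (circles), and with 1 library left out (triangles). *Il11* spread from -9.70 to -4.77 and *Il6st* from -0.20 to 0.63 when single libraries were left out, and *Ptgs2* stayed above 0, between 0.54 and 1.11.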

How the data were processed

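Direct RNA of 2 scrambled and 2 *Hnrnpl* knockdown libraries of C2C12 myoblasts was analysed. The authors used guppy for basecalling, minimap2 2.17 for mapping to GRCm39 and HTSeq 0.9.1 for gene counts, and deposited raw counts without normalization. The annotation release and strand setting are not given in the sources used here. Of the reads in each file, 42.2% to 43.5% were not assigned to a gene and were left out of library sizes. Gene IDs were matched without their version to GENCODE vM39, in which 56017 of 56748 were found. *Akr1b3* was matched as *Akr1b1*, and *Zadh2* is the same gene as *Ptgr3* and was counted once.

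Counts were tested with edgeR 4.0.16 (R 4.3.3) with TMM scaling, filterByExpr, group as the only term, and the quasi-likelihood test over 8670 genes with Benjamini-Hochberg adjustment. The thresholds are those of the study, whose DESeq2 Wald test, with a local or a parametric fit, was an alternative (DESeq2 1.42.0). A normalized count is a count divided by its library's TMM-scaled size, times the mean of those sizes. Intervals of fold changes come from the standard error. Intervals of counts are exact 95% intervals and cover counting error only, while the chi-square per gene between libraries of a group was 2.54 in scrambled and 2.79 in knockdown. Further alternatives changed the scaling (upper quartile or RLE factors), the filter (none, or 10 counts or more in each library), the design (a replicate block), or left out mitochondrially encoded genes with *Rn18s* or 1 library at a time.

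The batch number in the labels pairs the libraries. Deviations from the group means of libraries with the same number had a correlation of 0.00152 over 4501 genes. Named genes are the 10 genes, *Hnrnpl*, in each list every called gene, every gene with an unadjusted p under 0.05 and the 2 with the highest mean CPM, and the 5 tested genes most like *Il11* and most like *Ptgis*. Any other gene was named after seeing its values. A gene of the ligand list and a promoter sequence are not reported here. The 10 genes and all lists were chosen with earlier results of these data known. Promoter windows and transcripts were read from GRCm39 with GENCODE vM39. Reference transcripts were aligned to the genome with minimap2 2.31-r1302 to find genes with copies.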

Additional observations from a re-analysis of the deposited data

How the results depend on the processing

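Depth limited *Il6*, *Lif*, *Il11ra1* and *Ptges*, which have total reads of 0, 1, 1 and 4. Fitted folds that DESeq2 or edgeR without a filter gave for the last 3 rest on those reads and are not given. Of 12 alternatives, 4 left out a library. The replicate block changed no call among the 10 genes, with *Ptgs2* at 0.84 (adjusted p = 0.0107) in edgeR. With at least 10 counts in every library *Il11* and *Ptgis* could not be tested, and 1 of the 10 genes was called instead of 3. Calls over all genes numbered 229 in DESeq2 with the local fit (82 higher, 147 lower) and 113 with the parametric fit (43 higher, 70 lower), against 481 in edgeR.

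The parametric fit of DESeq2 left *Hnrnpl* at -0.78 (adjusted p = 0.0585) and *Ptgs2* at 0.84 (adjusted p = 0.119). Relay genes called numbered 1 with the DESeq2 local fit, 0 with the parametric fit and 0 with at least 10 counts in every library. STAT3-induced genes called numbered 0 with the parametric fit, and *Cebpb* was also lost with the local fit (adjusted p = 0.230). Arachidonate release gave 1 call with at least 10 counts in every library (*Acsl4*) and 1 with no filter (*Pla2g4a*). The cause of the other differences was not tested.

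Leaving out single libraries gave 194 to 433 calls over all genes, 82 to 183 higher and 112 to 261 lower, with the fewest without knockdown 1. Without scrambled 2, 131 genes were called higher. Calls ranged from 0 to 2 among relay genes, from 1 to 3 among STAT3-induced genes and from 0 to 1 in arachidonate release. The log2 fold change ranged from -1.03 to -0.48 for *Hnrnpl*, from 0.54 to 1.11 for *Ptgs2* and from -0.20 to 0.63 for *Il6st*. The markers *Acta1* (-0.95 to 0.19) and *Pdgfrb* (-0.30 to 0.27) changed sign. Among other named genes *Clcf1* (-0.48 to 0.04), *Timp1* (-0.39 to 0.09, and 0.04 without knockdown 1), *Birc5* (-0.17 to 0.13, and 0.03 without scrambled 1) and *Cbr1* (-0.23 to 0.46, and -0.08 without scrambled 1) changed sign, as did *Stat3* (-0.18 to 0.35), *Socs3* (-0.35 to 0.38), *Myc* (-0.15 to 0.11) and *Mcl1* (-0.22 to 0.10), and *Birc5* was 0.01 with upper quartile factors.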

Other observations

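Leukotriene synthesis uses the same arachidonic acid as the cyclooxygenases. Of its 9 listed genes 5 had reads, and 3 were tested without a call (2.33% of all genes were called higher and 3.22% lower), with a median log2 fold change of -0.03. *Alox5* and *Alox5ap*, which start leukotriene synthesis, *Ltc4s*, the synthase of leukotriene C4, and *Alox15*, another lipoxygenase, had 0 reads in every library. *Mgst3*, a microsomal glutathione transferase, had 307 and 320 reads in scrambled and 429 and 333 in knockdown, or 221 and 191 CPM against 312 and 271 CPM, with both knockdown libraries higher (log2 fold change 0.47, standard error 0.15, edgeR adjusted p = 0.0626). *Lta4h*, the hydrolase that makes leukotriene B4, had -0.17 (edgeR adjusted p = 0.635).

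HSP90 and its co-chaperones, the partners of the *Ptges3* product p23, were all measured. All 9 listed genes were tested and none was called, against the same shares of all genes, with a median log2 fold change of -0.15. *Hsp90ab1*, the most abundant, had 1766 and 1955 CPM in scrambled and 2073 and 2204 CPM in knockdown (0.17, edgeR adjusted p = 0.505), and *Stip1* had -0.22 (edgeR adjusted p = 0.354). *Cdc37*, which brings kinases to HSP90, had 261 and 305 CPM in scrambled and 213 and 211 CPM in knockdown, with both knockdown libraries lower (-0.45, standard error 0.14, edgeR adjusted p = 0.0687).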
